A study of Saccharomyces cerevisiae with 4 samples.

Results

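The aryl-alcohol dehydrogenase (AAD) genes of Saccharomyces cerevisiae are a family of 7 named genes, AAD3, AAD4, AAD6, AAD10, AAD14, AAD15 and AAD16. The members were taken as every probe set whose gene text or open reading frame is one of these names, which gave 6 probe sets of the 7519 on the array table. Of these, 4 name 1 gene each (AAD4, AAD6, AAD10 and AAD14), and 2 are shared, 1 by AAD16 and AAD4 and 1 by AAD15 and AAD3. AAD3, AAD15 and AAD16 were therefore measured only through a shared probe set. All 6 probe sets were called Present, that is above background, on all 4 arrays, so none was lost to the filter on dim signals. All 7 genes count among the 5383 genes that the probe sets name.

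The cells were the haploid laboratory strain BY4741, which all groups share. Cells grown in MM4 medium to the middle of exponential growth were moved to fresh medium for 15 min. The medium of 2 samples held quinine, an alkaloid used against malaria, at 1 g/L, added from an ethanol solution so that the medium held 0.7% ethanol by volume, and that of the 2 control samples held no drug. The sources used here do not say whether the control medium held ethanol too, so drug and solvent cannot be told apart. Each sample was hybridised to 1 Affymetrix Yeast Genome S98 array. The labels do not say whether the replicates were separate cultures, so p-values measure the spread between these arrays, which may be technical.

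The AAD proteins belong to the aldo-keto reductases, enzymes that interconvert aldehydes or ketones and alcohols with NADPH or NADH. They were named for their likeness to the aryl-alcohol dehydrogenase of Phanerochaete chrysosporium, a white-rot fungus in which that enzyme handles aromatic aldehydes during lignin breakdown. In yeast, most members lie near chromosome ends and no clear metabolic role is established for them. AAD4 and the AAD6 and AAD16 locus are known to respond to oxidants through Yap1, the transcription factor for the peroxide response.

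The 4 arrays had median signals between 596 and 636, and between arrays of 1 group the median probe set differed by a log2 gap of 0.23 in controls and of 0.21 with the drug. BY4741 is a strain of mating type a, and all 7 measured probe sets for genes that a cells express were Present on all 4 arrays. Of 4 probe sets for alpha-cell genes, 2 were Present on all 4 arrays, SAG1 with signals from 527 to 656 and STE3 with signals from 27.4 to 47.6. A Present call therefore does not by itself show that a gene is expressed. The probe sets of AAD4, AAD6 and AAD14 had signals below those of SAG1 on all 4 arrays, though probe sets differ in affinity. The probe set shared by AAD15 and AAD3 had signals from 435 to 556, below or within the range of SAG1. Quinine was compared with control in limma over 7249 probe sets, and 0 passed at an adjusted p under 0.05, so 0.0% of probe sets were called in either direction. At an unadjusted p under 0.05, 962 probe sets passed, 5.3% of those tested being higher and 7.97% lower with quinine.

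With quinine, AAD4 had the largest log2 fold change of the 6 probe sets over the 4 arrays, AAD10 came next with arrays that overlapped, and AAD6 and AAD14 lay near 0. No member passed the test adjusted over all probe sets. Of the 6 probe sets, 5 had a positive log2 fold change, against 47.0% of all probe sets tested, and 1 had a negative one, against 53.0%. The 6 values ran from -0.04 to 0.50 with a median of 0.27, and the median over all 7249 probe sets was -0.02. In 2 of the 6, AAD4 and the shared AAD15 and AAD3 probe set, both quinine arrays lay above both control arrays, as they did in 18.4% of all probe sets tested, and in 0 of the 6 did they lie below, against 24.7%.

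AAD4 (YDL243C), whose product the file text links to the oxidative stress response, had signals of 277 and 327 on control replicates 1 and 2 and 444 and 409 on quinine replicates 1 and 2. Both quinine arrays lay above both control arrays, and the gap between the groups was wider than the gap within either. The mean was 302 ± 35.0 (SD, n = 2) without the drug and 427 ± 24.6 (SD, n = 2) with it, 1.42-fold. The log2 fold change of AAD4 was 0.50 ± 0.18 (SE), with a 95% interval from 0.04 to 0.96, an unadjusted p of 0.0369 in limma (adjusted p of 0.343). It was the 1 member of the 6 probe sets with an unadjusted p under 0.05, beside 5.3% of all probe sets higher and 7.97% lower. Of all probe sets, 6.7% had a higher log2 fold change than AAD4. When any 1 array was left out, the log2 fold change stayed between 0.38 and 0.62. Such a fit has 1 residual degree of freedom and takes the lone array to vary like the other group, so only the size for AAD4 is given.

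The probe set shared by AAD16 (YFL057C) and AAD4 can take up transcripts of both genes, so its signal cannot be assigned to either. It gave 1287 and 1005 on control replicates 1 and 2 and 1583 and 1206 on quinine replicates 1 and 2. Replicate 1 was the higher array in both groups, and quinine replicate 2 lay below control replicate 1, so the groups overlapped. On the AAD4 probe set the order of the 2 control arrays was the opposite. The log2 fold change of the shared probe set was 0.28 ± 0.23 (SE), with a 95% interval from -0.30 to 0.86 (limma, adjusted p of 0.694). It was 0.46 and 0.48 without control replicate 1 and without quinine replicate 2, and 0.10 and 0.09 without control replicate 2 and without quinine replicate 1. Between same-numbered arrays the log2 difference was 0.30 for replicate 1 and 0.26 for replicate 2, though the labels do not call these pairs.

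AAD6 (YFL056C), also tied to the oxidative stress response in the file text, had signals of 159 and 177 without the drug, against 176 and 178 on the quinine arrays. The 4 values were nearly level, and the groups overlapped. They lay at percentiles from 17.0 to 18.9 of the probe sets of each array. The alpha-cell gene MF(ALPHA)1 had signals from 174 to 206 in these a cells, so the AAD6 values may be near background. The reference gene table of assembly R64 lists AAD6 as a pseudogene with YFL057C, the reading frame of AAD16, as a synonym, so that table treats as 1 locus what the array reads with separate probe sets. The log2 fold change of AAD6 was 0.08 ± 0.18 (SE), with a 95% interval from -0.37 to 0.52. Its adjusted p was 0.919 in limma. The 3 intervals of AAD4, AAD6 and the probe set shared by AAD16 and AAD4 overlapped, and the difference between them was not tested.

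**Figure D1:**
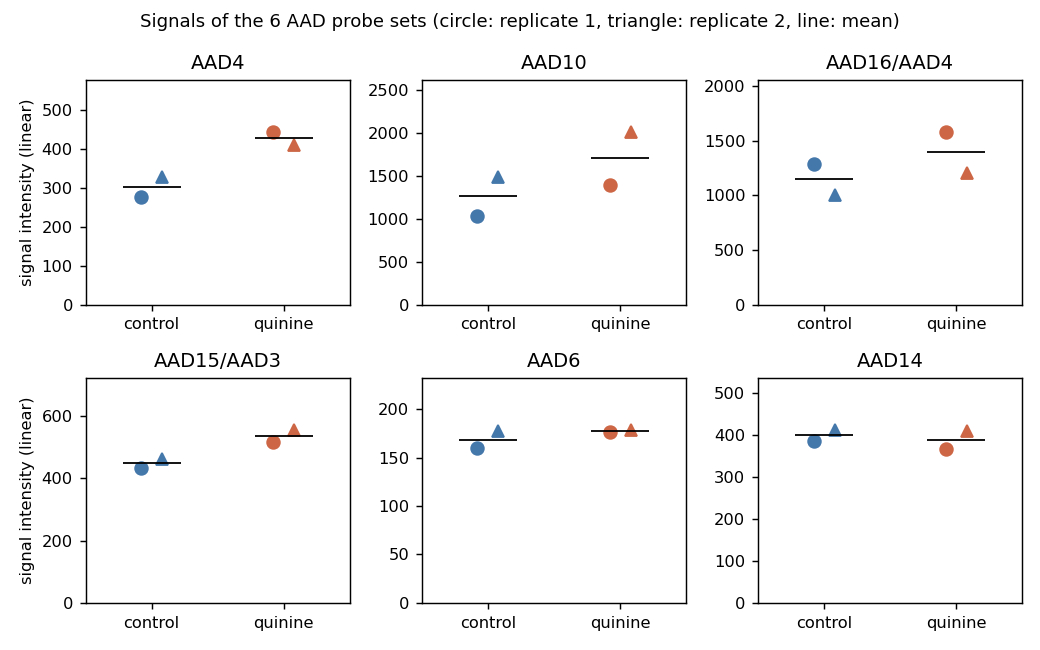
Signal intensity (linear axis from 0) of the 6 AAD probe sets on the 2 control and 2 quinine arrays, with circles for replicate 1, triangles for replicate 2 and a line at each group's mean. AAD4 and the probe set of AAD15 and AAD3 have both quinine arrays above both control arrays, and in the other 4 panels the groups overlap.

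AAD10 (YJR155W), for which the file text gives no known physiological role, varied most between arrays of 1 group. Its signals were 1034 and 1483 on control replicates 1 and 2 and 1394 and 2012 on quinine replicates 1 and 2. Replicate 2 was the higher array in both groups, by log2 gaps of 0.52 (controls) and 0.53 (quinine), the reverse of the order on the AAD16 and AAD4 probe set. Gaps between replicates larger than that of AAD10 occurred in 18.4% of probe sets in controls and 13.5% with quinine. Quinine replicate 1 lay below control replicate 2, so the groups overlapped. The mean was 1258 ± 317 (SD, n = 2) without the drug and 1703 ± 437 (SD, n = 2) with it.

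The log2 fold change of AAD10 was 0.44 ± 0.28 (SE), with a 95% interval from -0.27 to 1.14 (limma, adjusted p of 0.589). The value moved with the array left out, and it lay above that of AAD4 without control replicate 2 or quinine replicate 1. It was 0.18 and 0.17 without control replicate 1 and without quinine replicate 2, and 0.70 without control replicate 2 or quinine replicate 1. Between same-numbered arrays the log2 difference of AAD10 was 0.43 for replicate 1 and 0.44 for replicate 2. For AAD4 these differences were 0.68 and 0.32. The labels do not say that the number marks a pair.

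The probe set shared by AAD15 (YOL165C) and AAD3 varied little within groups. Its signals were 435 and 463 without the drug, against 516 and 556 on the quinine arrays, and both quinine arrays lay above both control arrays. The mean was 449 ± 19.7 (SD, n = 2) without the drug and 536 ± 28.2 (SD, n = 2) with it, 1.19-fold. The log2 fold change was 0.26 ± 0.17 (SE), with a 95% interval from -0.17 to 0.68 (limma, adjusted p of 0.603). It lay between 0.20 and 0.31 when any 1 array was left out.

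AAD14 (YNL331C), another member with no role given in the file text, was the 1 member with a negative value. Its signals were 387 and 413 without the drug, against 368 and 410 on the quinine arrays, so the groups overlapped. The log2 fold change was -0.04 ± 0.17 (SE), with a 95% interval from -0.47 to 0.39. Its adjusted p was 0.966 in limma. The sign turned to 0.0069 without control replicate 2 and to 0.04 without quinine replicate 1.

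**Figure D2:**
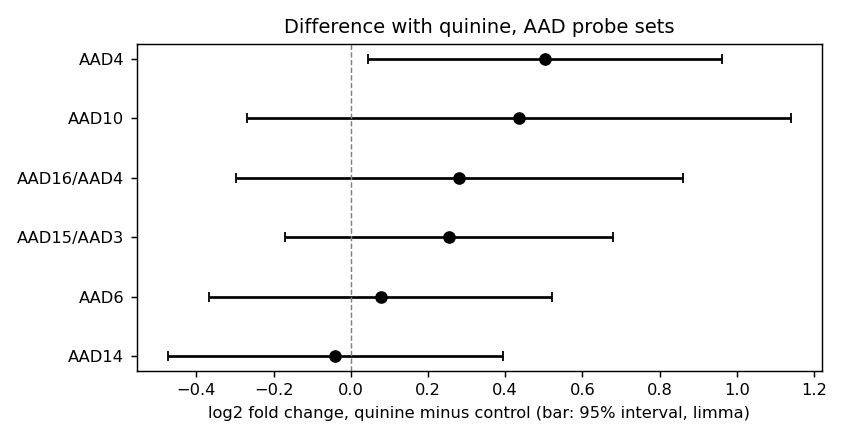
Log2 fold change of quinine minus control for the 6 AAD probe sets, with 95% intervals from limma as bars and a dashed line at 0. The interval of AAD4, from 0.04 to 0.96, is the 1 that does not reach 0, before adjustment for the 7249 probe sets tested.

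The authors' deposited table gives folds from its own means and bounds, and marks 777 probe sets, 4.07% of the table as higher with quinine and 6.26% as lower. AAD4 was the 1 marked member, with a fold of 1.41 and bounds of 1.22 and 1.66 in the authors' deposited table. Every marked probe set had a lower bound of at least 1.2 in size, as had 19 unmarked ones. The lower bound of AAD4 lay just above 1.2. The probe set of AAD15 and AAD3 had a fold of 1.20 with bounds of 1.09 and 1.31 in the authors' deposited table. The lower bounds there were 0.87 for AAD10 and 0.88 for the probe set of AAD16 and AAD4, and the bounds of AAD6 were 0.94 and 1.18. AAD14 had a fold of -1.02 in the authors' deposited table, where a negative sign stands for a lower signal with quinine.

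Single-gene probe sets were ranked by their likeness to AAD4 and to AAD10 across the 4 arrays. Likeness was taken as the Euclidean distance between log2 signals centred on each probe set's mean over the 4 arrays, over 5200 probe sets. The 3 nearest to AAD4 were NAS2, an assembly chaperone of the proteasome, at a distance of 0.044, RPI1, a putative transcriptional regulator, at 0.0553, and ICS2, a gene of unknown function, at 0.0566. Within a distance of 0.1 there were 9 probe sets for AAD4 and 4 for AAD10. These counts were not compared with those of other probe sets. AAD10 had the widest range over the arrays, 0.96 on the log2 scale, and its 3 nearest were COS12, of a family of genes near chromosome ends, at 0.0510, the vacuolar cation channel gene YVC1 at 0.0797 and the tubulin folding factor gene CIN2 at 0.0861. The groups overlapped in these 3 genes, as their choice by likeness to AAD10 on the same arrays makes likely. COS12 was Present on just 1 control array.

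Among 33 tested genes of the peroxide response and other Yap1-related genes, 20 had positive and 13 negative log2 fold changes. Of all probe sets, 47.0% were positive and 53.0% negative. The median of the 33 was 0.04. This median turned sign with the array left out. It was 0.18 and 0.17 without control replicate 1 or quinine replicate 2, and -0.05 and -0.07 without control replicate 2 or quinine replicate 1. Leaving out 1 array also unbalances the replicate numbers, and same-numbered arrays deviated together across probe sets (correlation of 0.695). Dependence on single arrays and a shared difference between replicates therefore cannot be told apart here. In limma 0 of the 33 passed at an adjusted p under 0.05. At an unadjusted p under 0.05, 0 passed too, beside 5.3% of all probe sets higher and 7.97% lower. Both quinine arrays lay above both control arrays in 7 of the 33 and below in 5, beside 18.4% and 24.7% of all probe sets. YAP1 itself had signals of 528 and 482 without the drug, against 624 and 550 on the quinine arrays, so that its groups did not overlap, and a log2 fold change of 0.22 ± 0.18 (SE). FLR1, a multidrug transporter gene and Yap1 target, had overlapping signals of 2446 and 2346 without the drug, against 2692 and 2164 with it.

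The smallest unadjusted p-values among the genes of this list without overlap were those of PRX1, GTT2 and GSH2. PRX1, the mitochondrial peroxiredoxin gene, had signals of 637 and 289 without the drug, against 898 and 760 with it, with a log2 fold change of 0.94 ± 0.39 (SE). The glutathione transferase gene GTT2 was lower with quinine on both arrays, with signals of 529 and 594 without the drug, against 434 and 418 with it. GSH2, which encodes glutathione synthetase, was lower on both arrays too, with a log2 fold change of -0.37 ± 0.17 (SE). Their adjusted p-values lay between 0.397 and 0.444 in limma. OYE3, another gene that was to be named, was not analysed here.

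A list of other aldo-keto reductase and aldehyde reductase genes also held dehydrogenase and quinone oxidoreductase genes, among them BDH1 and ZTA1. Of its 16 probe sets, 15 had positive log2 fold changes, beside 47.0% of all probe sets, with a median of 0.21. In 3 of the 16 both quinine arrays lay above both control arrays, near the 18.4% of all probe sets, and 0 lay below, beside 24.7%. At an unadjusted p under 0.05, 2 were higher, BDH1 and ZTA1, beside 5.3% of all probe sets, and 0 passed the adjusted test in limma. The median moved with the array left out. Without control replicate 1 or quinine replicate 2 it was 0.61 or 0.45. Without control replicate 2 or quinine replicate 1 it was -0.07 or 0.07. As in the Yap1 list, such fits are unbalanced in replicate number, so single arrays and a shared difference between replicates cannot be told apart. BDH1, the butanediol dehydrogenase gene, had signals of 2821 and 1897 without the drug, against 3749 and 3343 with it, a log2 fold change of 0.61 ± 0.23 (SE). ZTA1, a quinone oxidoreductase gene, had 719 and 904 without the drug, against 1100 and 1178 with it, and ARA1, the arabinose dehydrogenase gene, 2255 and 1479 against 3127 and 2426. The groups of these 3 did not overlap, and their adjusted p-values lay between 0.355 and 0.421 in limma.

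YPL088W, which the file text calls a putative aryl alcohol dehydrogenase although it is not an AAD member, was the 1 of the 16 with a negative value. Its signals were 941 and 612 on control replicates 1 and 2 and 932 and 467 on quinine replicates 1 and 2. Replicate 1 was the higher array in both groups, the groups overlapped, and the log2 fold change was -0.20 ± 0.40 (SE). GRE2, a stress-related reductase gene, was at 0.0002 ± 0.17 (SE). The NADPH-dependent alcohol dehydrogenase genes ADH6 and ADH7 were at 0.08 ± 0.14 and 0.04 ± 0.23 (SE), with overlapping groups, and ADH7 was Present on 1 array of each group.

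**Figure D3:**
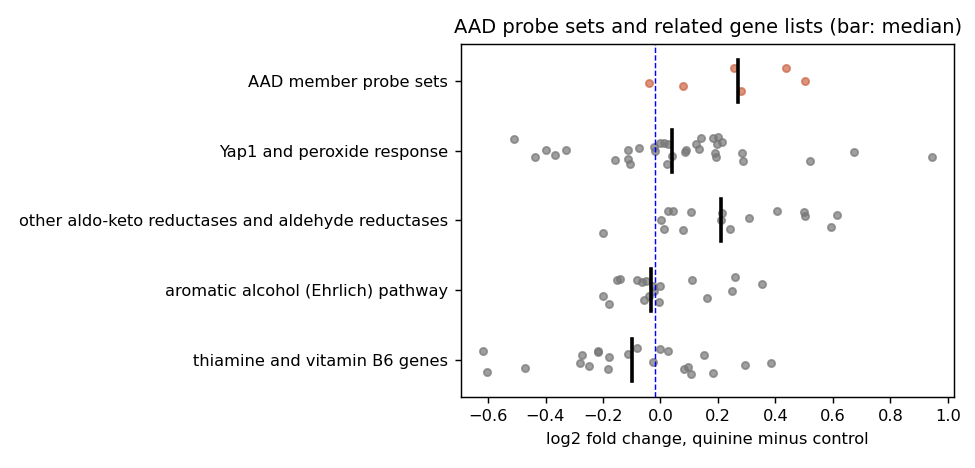
Log2 fold change of quinine minus control for each tested probe set of the AAD family (top row, 6 points) and of 4 related gene lists, with a bar at each median and a dashed line at the median of all 7249 probe sets, -0.02. The medians are 0.27 for AAD, 0.04 for Yap1 and peroxide genes and 0.21 for other reductases and dehydrogenases. They are -0.03 for the aromatic alcohol pathway and -0.10 for thiamine and vitamin B6 genes.

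The pathway that turns aromatic amino acids into aromatic aldehydes and alcohols, the Ehrlich pathway, yields compounds of the kind that aryl-alcohol dehydrogenases act on in the fungus. Of its 18 tested genes, 5 had positive and 13 negative log2 fold changes, beside 47.0% and 53.0% of all probe sets. The median was -0.03, and 0 passed at an adjusted p under 0.05 in limma. At an unadjusted p under 0.05, 0 passed too, beside 5.3% of all probe sets higher and 7.97% lower. The median lay between -0.03 and -0.0086 when any 1 array was left out. Both quinine arrays lay above both control arrays in 2 of the 18 and below in 2, beside 18.4% and 24.7% of all probe sets. ARO9, an aromatic aminotransferase gene, had signals of 192 and 180 without the drug, against 235 and 172 with it, and was Present on just 1 control array. ARO10, a phenylpyruvate decarboxylase gene, had 93.9 and 55.1 without the drug, against 99.7 and 42.0 with it, and was Present on 1 of the 2 quinine arrays. Both overlapped between groups. The genes with the smallest unadjusted p and no overlap were the alcohol dehydrogenase gene ADH2, the branched-chain aminotransferase gene BAT2 and the alcohol dehydrogenase gene ADH4, at 0.35 ± 0.17, 0.25 ± 0.16 and -0.20 ± 0.15 (SE).

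By the order of genes in the R64 table, the AAD genes lie toward chromosome ends, with 1 listed gene between the end and AAD3 or AAD15, 5 for AAD4 and AAD10, 6 for AAD14 and 10 for AAD6. AAD4, AAD6, AAD10 and AAD14 each have a gene of the THI5 family, for thiamine precursor synthesis, as a direct neighbour: THI13, THI5, THI11 and THI12. Those 4 neighbours were not analysed here. Among thiamine and vitamin B6 genes that were tested, 22 probe sets in all, 8 had positive and 14 negative log2 fold changes. Of all probe sets, 47.0% were positive and 53.0% negative. The median of the 22 was -0.10, and 0 passed the adjusted test in limma. The median lay at -0.18 and -0.17 without control replicate 1 or quinine replicate 1, and at -0.04 and -0.03 without control replicate 2 or quinine replicate 2. At an unadjusted p under 0.05, 1 was higher and 2 were lower, near the 5.3% and 7.97% of all probe sets. Both quinine arrays lay above both control arrays in 4 of the 22 and below in 6, near the 18.4% and 24.7% of all probe sets. PET18 (-0.62 ± 0.18, SE) and the thiamine pyrophosphokinase gene THI80 (-0.47 ± 0.17, SE) were lower, and SNO1, of vitamin B6 synthesis, was higher (0.39 ± 0.12, SE), with no overlap between groups. THI4, of thiazole synthesis, was at 0.18 ± 0.29 and SNZ1, the partner gene of SNO1, at 0.08 ± 0.10 (SE), both with overlap.

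The nearest 2 listed genes on each side of the AAD genes made 22 genes, of which 13 were measured, by 12 tested probe sets, and the other 9 were not analysed here. Of the 12 probe sets, 9 had positive and 3 negative log2 fold changes, beside 47.0% and 53.0% of all probe sets. The median of the 12 was 0.07. The median was 0.12 without control replicate 2 and between 0.03 and 0.05 without any other array. Both quinine arrays lay above both control arrays in 1 and below in 2, beside 18.4% and 24.7% of all probe sets, and 0 passed the adjusted test in limma. The 1 with an unadjusted p under 0.05, against 5.3% of all probe sets higher and 7.97% lower, was AQY3, an aquaglyceroporin gene beside AAD6. Its signals were 325 and 217 without the drug, against 1095 and 1006 on the quinine arrays, with a log2 fold change of 1.98 ± 0.25 (SE), an unadjusted p of 0.000362 in limma (adjusted p of 0.158). AGP3, an amino acid permease gene that lies between AAD6 and AQY3, had overlapping signals of 112 and 104 without the drug, against 130 and 109 with it.

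YJR154W, next to AAD10, had signals of 275 and 648 on control replicates 1 and 2 and 455 and 931 on quinine replicates 1 and 2. Replicate 2 was the higher array in both groups, as in AAD10, and its log2 fold change was 0.62 ± 0.52 (SE). Beside AAD4, YDL241W was at -0.25 ± 0.29 (SE) with overlap. The neighbours of AAD14, RPD3 and PEX6, were at -0.19 ± 0.18 and 0.32 ± 0.22 (SE). RDS1, a regulator gene beside AAD3, was at 0.09 ± 0.29 (SE), and the probe sets of BDS1, near AAD15, were at 0.11 ± 0.18 and 0.04 ± 0.28 (SE). None of these 7 probe sets had an adjusted p under 0.05 in limma. The probe set of SNZ2 and SNZ3, which neighbour AAD14 and AAD6, was at -0.25 ± 0.18 (SE), and was Present on just 1 control array. The probe set that HXT15 and HXT16, neighbours of AAD4 and AAD10, share with HXT13 and HXT17 was at 0.02 ± 0.18 (SE), and was also Present on just 1 control array.

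**Figure D4:**
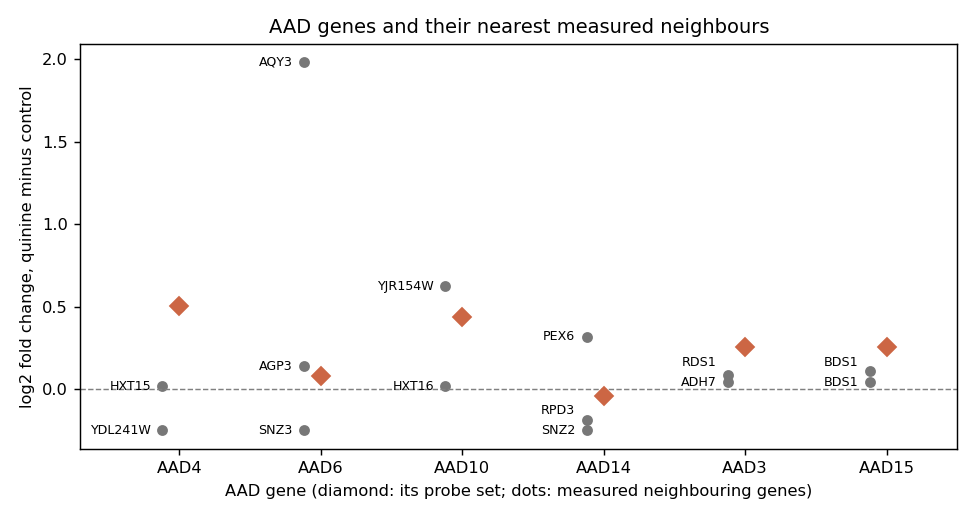
Log2 fold change of quinine minus control for the AAD genes (diamonds) and for the measured genes among the nearest 2 on each side of each (dots with names), in columns by AAD gene. AQY3 beside AAD6 stands at 1.98 while AAD6 stands at 0.08, and AAD3 and AAD15 carry the same diamond, 0.26, because they share a probe set, as do SNZ2 and SNZ3, and HXT15 and HXT16.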

How the data were processed

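RNA of 4 samples was labelled with biotin from 8 ug of total RNA, per the labels' protocols. The authors deposited a linear signal intensity for each probe set on each array. MAS5 is named in the submitters' processing notes, and the scaling between arrays is not stated in the sources used here. The authors' table holds group mean intensities, standard errors, signed folds and bounds (all scores of the authors' own), a mark on the probe sets they selected, and the Present calls of each group, deposited as a percent of its arrays. Every probe set was Present on at least 1 array.

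Signals were taken as log2 values with no pseudocount. Probe sets with a Present call on 2 or more arrays of the 4 were fitted in limma 3.58.1 under R 4.3.3 (variance trend, 2 residual and 3.28 prior degrees of freedom, Benjamini-Hochberg adjustment over 7249 probe sets). The fit is by probe set because AAD genes share some. It was tested on simulated data in which the arrays varied independently. The simulation held no shared deviation of same-numbered arrays, so it cannot show how the fit fares with one. By exact permutation, 2 arrays against 2 could not go below a two-sided p of 0.333, so none was run. The number of arrays limits the precision. Near-identical AAD sequences may cross-hybridise. Open reading frames were matched to assembly R64 for names and gene order only: 5275 probe sets named 1 gene, 480 several and 1764 had no such match. No coordinates are printed, since the files name no build. Of several single-gene probe sets of a listed gene, the brighter was used, and shared probe sets were counted once.

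Genes named were all members, up to 3 of each list with the smallest unadjusted p among those without overlap, 11 genes fixed by name, the nearest 2 neighbours on each side, and the 3 nearest patterns to AAD4 and to the member of widest range. The members and lists were chosen with earlier results of these data known. Protein and promoter sequences were not used here. Alternatives were other scalings, filters, an offset of 50, no trend, a replicate block and leaving out each array.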

Additional observations from a re-analysis of the deposited data

How the results depend on the processing

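Under quantile normalization, median centring, other Present filters, 1 probe set per gene, an offset of 50 or no variance trend, each member in the fit kept its direction and no member had an adjusted p under 0.05 in limma. AAD4 ranged from 0.44 to 0.52 in log2 fold change there, with adjusted p-values from 0.216 to 0.351. The shared probe sets are not in the fit of 1 probe set per gene, where 1 of 5118 passed. With 1 array left out, log2 fold changes lay between 0.38 and 0.62 for AAD4, 0.17 and 0.70 for AAD10, 0.09 and 0.48 for AAD16 and AAD4, 0.20 and 0.31 for AAD15 and AAD3, 0.0003 and 0.15 for AAD6, and -0.12 and 0.038 for AAD14, which turned to 0.0069 without control replicate 2 and to 0.038 without quinine replicate 1. Over all probe sets the count called was then 0 to 27, with 27 without control replicate 1 and 2 without control replicate 2, and 0 members among them.

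The replicate block called 2 members, AAD4 (0.50, adjusted p of 0.0216) and AAD10 (0.44, adjusted p of 0.0354), and 1548 of 7249 probe sets in limma, 9.34% of all probe sets as higher, where the fit without it called 0. The labels give the arrays only a shared number, and the deviations of same-numbered arrays from their group means correlated at 0.695 across probe sets. The block leaves 1 residual degree of freedom. No member lacked a Present call, so no bound was computed, and the protein and promoter comparisons were not run.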
